A study of Mus musculus with 8 samples.

Results

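The peaks described here are the sites of RNA:DNA hybrid enrichment in Rtel1-deleted mouse embryonic fibroblasts, compared between cells in which human RNaseH1 was switched on and cells in which it was not. A peak list was read for each condition, 91097 peaks without induction (Cre mock) and 105081 peaks with induction (Cre DOX), 196178 of the 344010 peaks in the 4 lists of the series. Every peak of both lists was used, and a peak was counted as shared when it overlapped a peak of the other list by at least 1 bp. A mock peak with no overlap is called lost, a DOX peak with no overlap gained, and the others kept.

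All cells were mouse embryonic fibroblasts with floxed Rtel1 alleles that carried a doxycycline-inducible, GFP-tagged wild-type human RNaseH1 on a lentivirus and had been selected for it. Both groups were infected with an adenovirus encoding Cre and GFP, which removes Rtel1. The Cre DOX cells received doxycycline at 2 μg/ml for 48 h, starting 48 h after infection, and the Cre mock cells were mock treated. Genomic DNA was cut with 5 restriction enzymes and hybrids were pulled down with the S9.6 antibody (DRIP-seq), with 3 immunoprecipitations pooled into 1 library per condition. Because there was 1 library a side, no test between the conditions was possible, and the differences below are between these libraries. The labels give no clone for the cells, and no cells without the transgene are described as given doxycycline, so the enzyme and the drug cannot be told apart. The lists carry no read totals, so depth is unknown, and intervals cover counting error only.

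R-loops are structures in which RNA pairs with its template DNA and displaces the other strand. They form behind RNA polymerase, mostly near gene starts and ends where the displaced strand is rich in G, and the displaced strand can then fold into G-quadruplexes. RNaseH1 cuts the RNA of the hybrid, whereas RTEL1 is a helicase that unwinds G-quadruplexes and telomeric loops.

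The unit of height in the lists is a score that is 10 times the -log10 of the peak's q-value, rounded down, for 91092 of 91097 mock and 105079 of 105081 DOX peaks, so that a score of 10 stands at a q-value of 0.1. It depends on the depth of its own library, and scores of the 2 lists are set side by side without being compared in size. The lists differed in build. The narrowest peak was 132 bp in mock and 213 bp in DOX, the median widths were 343 and 513 bp, and the peaks covered 47.6 and 89.0 Mb. The share of peaks lying mostly (over 50%) in sequence that the reference marks as repeats was 54.1% in mock and 75.2% in DOX.

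Of the mock peaks, 46771 (51.3%, 95% exact interval 51.0 to 51.7) had no DOX peak over them, and 66834 DOX peaks (63.6%) had no mock peak under them. Taken over all positions together, the lost peaks were shorter and richer in G and C than the kept ones, and a smaller share lay in repeats. Their median width was 253 bp, their median G+C content was 48.5% and 33.0% were mostly repeat-masked. Kept mock peaks were wider (473 bp) and poorer in G and C (39.7%), and 76.3% of them were mostly masked. The G+C and repeat contrasts did not hold at gene starts and ends, defined below. At starts G+C was 58.3% in lost and 58.7% in kept mock peaks, and 6.07% and 4.29% were mostly masked. At ends these values were 51.3% and 50.9%, and 9.79% and 10.5%. Gained DOX peaks had a median width of 405 bp and a median G+C content of 42.1%, and 76.9% of them were mostly masked. In the Cre mock list 74.9% of the peaks that were at most 50% masked were lost against 31.4% of the others. Gains differed less by masking, with 59.1% of the DOX peaks at most 50% masked and 65.1% of the others gained.

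The sequences of some of the highest-scoring lost and gained peaks are shown as examples of unmasked and masked sequence. They were chosen after their values were seen, and others went against them. High-scoring lost peaks were partly masked at Dnase2b (30.7%) and Cab39l (47.2%), and high-scoring gained peaks were little masked at Cdrt4 (18.8%), Slc30a4 (9.31%), Tmcc1 (6.02%) and Flvcr2 (0%). They are the plus strand of GRCm38.p6, the RefSeq copy of mm10, with capitals for repeat-masked bases. The first 3 are lost mock peaks, at chr11:121518188-121518371 in an intron of Zfp750, at chr14:57132370-57132630 in an intron of Gjb6 and at chr5:43581179-43581325 in an intron of C1qtnf7. The last 3 are gained DOX peaks, at chr8:119343671-119343939 upstream of Hsbp1, at chr7:12036053-12036335 upstream of Vmn1r77 and at chr2:58882068-58882280 in an intron of Gm11099.
Zfp750: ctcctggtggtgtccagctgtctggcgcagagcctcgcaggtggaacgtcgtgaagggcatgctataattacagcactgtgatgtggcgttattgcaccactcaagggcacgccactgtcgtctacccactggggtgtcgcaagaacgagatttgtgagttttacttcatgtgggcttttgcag
Gjb6: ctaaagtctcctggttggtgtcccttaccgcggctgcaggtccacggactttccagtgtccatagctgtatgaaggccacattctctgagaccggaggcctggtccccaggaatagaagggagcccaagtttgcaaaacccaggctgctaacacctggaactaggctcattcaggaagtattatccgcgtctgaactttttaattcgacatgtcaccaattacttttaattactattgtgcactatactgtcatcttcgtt
C1qtnf7: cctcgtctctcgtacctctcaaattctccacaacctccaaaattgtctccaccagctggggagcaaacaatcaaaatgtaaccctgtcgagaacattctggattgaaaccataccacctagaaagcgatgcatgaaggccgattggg
Hsbp1: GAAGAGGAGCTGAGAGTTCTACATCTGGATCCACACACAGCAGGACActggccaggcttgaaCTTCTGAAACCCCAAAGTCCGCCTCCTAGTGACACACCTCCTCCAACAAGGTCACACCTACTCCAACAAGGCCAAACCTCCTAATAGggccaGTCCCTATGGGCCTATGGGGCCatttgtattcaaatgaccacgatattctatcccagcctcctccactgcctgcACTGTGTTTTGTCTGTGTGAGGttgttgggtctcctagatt
Vmn1r77: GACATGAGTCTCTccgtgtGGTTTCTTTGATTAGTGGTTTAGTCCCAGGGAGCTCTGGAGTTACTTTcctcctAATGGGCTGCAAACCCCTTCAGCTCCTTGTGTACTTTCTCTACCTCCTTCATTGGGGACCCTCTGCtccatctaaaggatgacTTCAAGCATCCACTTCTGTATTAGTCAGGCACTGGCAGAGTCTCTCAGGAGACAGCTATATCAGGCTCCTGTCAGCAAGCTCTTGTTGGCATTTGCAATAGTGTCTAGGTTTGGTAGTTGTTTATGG
Gm11099: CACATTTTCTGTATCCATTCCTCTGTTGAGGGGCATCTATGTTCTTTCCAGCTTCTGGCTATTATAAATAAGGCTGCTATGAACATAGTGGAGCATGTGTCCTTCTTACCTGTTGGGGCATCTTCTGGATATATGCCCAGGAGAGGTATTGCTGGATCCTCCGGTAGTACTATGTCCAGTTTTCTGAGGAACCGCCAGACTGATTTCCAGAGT
The lost sequences hold no masked base. Of the gained sequences 66.2% was masked at Hsbp1, 89.8% at Vmn1r77 and 100% at Gm11099.

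Along protein-coding genes, peaks were most often lost in gene bodies and at gene ends. A peak was placed at a start when it touched the 1 kb either side of a protein-coding transcript's first base in GENCODE M21, otherwise at an end by the same distance from a last base, otherwise in the body of a gene, otherwise outside genes. Starts lost 4979 of 8615 mock peaks (57.8%, 56.7 to 58.8), bodies 20427 of 30447 (67.1%, 66.6 to 67.6), ends 3339 of 4935 (67.7%, 66.3 to 69.0), and the sequence outside genes 18026 of 47100 (38.3%, 37.8 to 38.7). The last share was 63.7% with every peak set to 400 bp and 71.4% in the top decile of both lists by score, where starts minus outside came to 8.03 and 6.42 percentage points instead of 19.5. Gains were least frequent at starts, with 2381 of 6065 DOX start peaks gained (39.3%, 38.0 to 40.5), 17533 of 26626 body peaks (65.8%), 1606 of 3329 end peaks (48.2%) and 45314 of 69061 peaks outside genes (65.6%). Starts therefore fell from 9.46% of the list in mock to 5.77% in DOX and ends from 5.42% to 3.17%, while the share outside genes rose from 51.7% to 65.7%. Within bodies, peaks over an exon were lost more often (73.0% of 4895) than peaks over introns only (66.0% of 25552), and were gained less often (47.4% against 67.9%), but these shares were not split by masking, by which body peaks lost 81.0% (at most 50% masked) and 44.1% (over 50% masked).

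**Figure D1:**
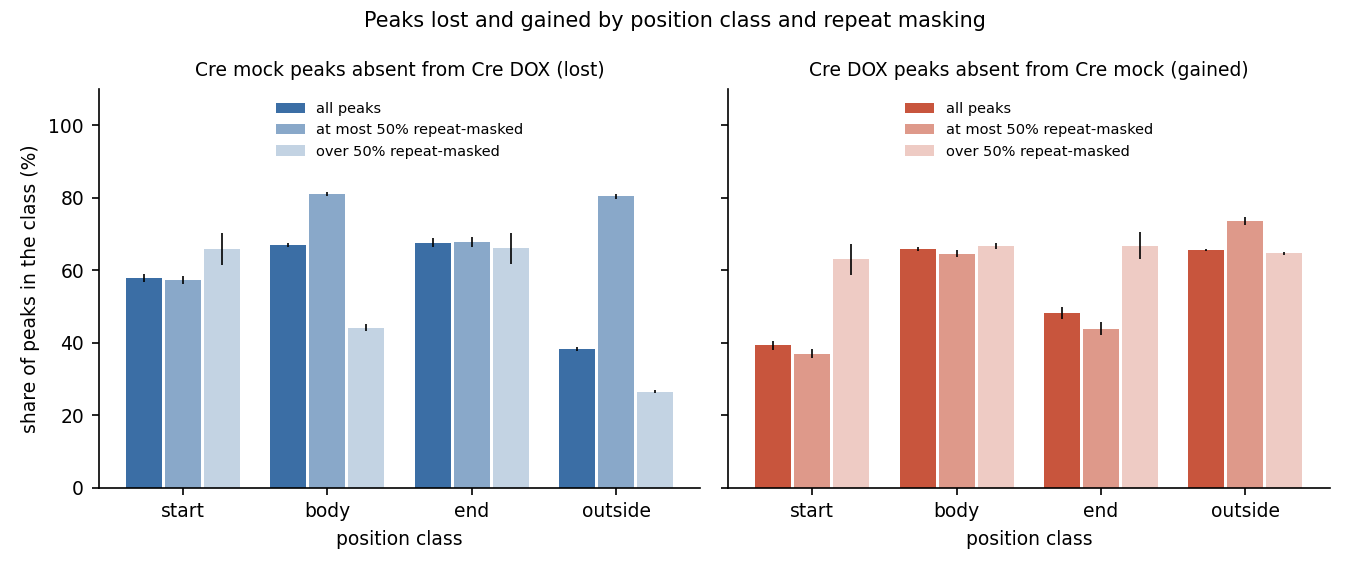
Share of peaks absent from the other list (vertical axis, %) by position class, for Cre mock peaks on the left and Cre DOX peaks on the right, with bars for all peaks, peaks at most 50% repeat-masked and peaks over 50% masked and lines for 95% exact intervals. Outside genes 38.3% of all mock peaks were lost, but 80.4% of those at most 50% masked and 26.5% of those over 50% masked. Starts lost 57.3% of their peaks at most 50% masked.

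The order of the classes turned on repeats. From here on, unmasked peaks are those at most 50% masked, which can hold some masked sequence, and masked peaks are those over 50% masked. Among peaks at most 50% masked, starts lost the smallest share, 57.3% of 8157, ends lost 67.8% of 4440, and bodies and the sequence outside genes lost 81.0% of 18938 and 80.4% of 10302. Among peaks over 50% masked, the sequence outside genes lost 26.5% of 36798 and bodies 44.1% of 11509, whereas starts and ends lost 65.9% of 458 and 66.1% of 495. Unmasked start peaks were also the least often gained, at 37.0% of 5552 against 73.6% of 7394 outside genes. In numbers, unmasked peaks fell from 41837 to 26079 and masked peaks rose from 49260 to 79002. The number of unmasked peaks fell in every class, from 8157 to 5552 at starts, from 18938 to 10434 in bodies, from 4440 to 2699 at ends and from 10302 to 7394 outside genes.

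In bases, coverage fell at starts and ends but not over whole genes. Mock peaks covered 7.88% of the start windows, 4.38 times their share of the genome, and DOX peaks covered 6.11%, 1.82 times theirs. End windows were covered at 4.96% in mock and 3.58% in DOX, or 2.76 and 1.06 times the genome. Genes with their windows were covered at 2.20% and 2.42%, or 1.22 and 0.721 times the genome. Among the 14164 genes of 10 kb or more, a mock peak lay over the first base of the start in 13.3% and a DOX peak in 9.09%. At 200 bp past the start, where mock coverage was 14.6%, DOX coverage was 9.52%, and at 1 kb before the start the 2 lists stood at 4.43% and 4.12%.

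**Figure D2:**
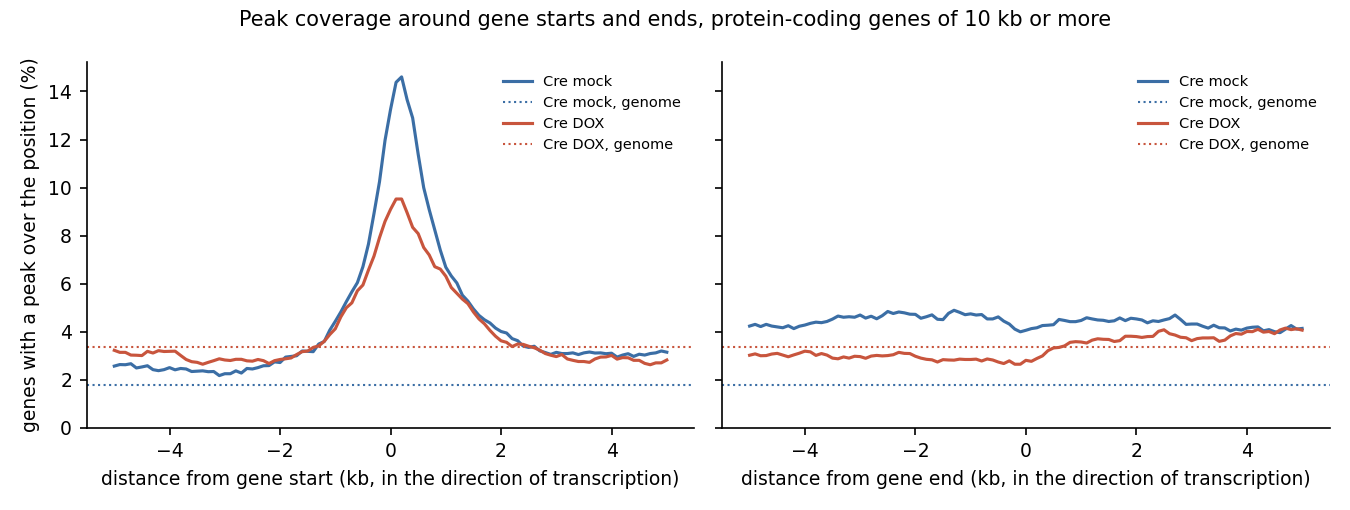
Percent of the 14164 protein-coding genes of 10 kb or more with a peak over each position (vertical axis) against distance from the gene start or gene end in kb (horizontal axis), for Cre mock and Cre DOX, with dotted lines for each list's coverage of the genome. Over the start the mock line reaches 14.6% and the DOX line 9.52%, and 1 kb before the start they stand at 4.43% and 4.12%, while at the end position they stand at 4.06% and 2.81%.

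The share lost fell from 67.1% of peaks with a score of 10 to 14 to 12.8% of the 561 peaks with a score of 100 or more, and from 70.8% of peaks under 213 bp to 0 of 232 peaks of 5 kb or more (upper exact limit 1.58%). A wider peak is more likely to overlap another by at least 1 bp, so the second of these falls in part by construction. By G+C content the share lost was lowest between 35 and 40% (21.6%) and highest between 50 and 60% (73.1%). At starts it varied little with G+C content, from 55.3% of peaks between 50 and 60% to 62.9% of those between 40 and 45%. Lost peaks lay a median of 6.04 kb from the nearest DOX peak, and 22.5% of them had one within 1 kb. Of lost peaks 26.0% overlapped a peak in either list of the Rtel1-proficient cells, of kept mock peaks 70.0%, and of gained DOX peaks 27.3%. At starts the shares were higher, 40.6% of lost, 82.3% of kept mock and 31.4% of gained peaks.

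Gene by gene, 7033 protein-coding genes had a mock peak at a start, and 3020 of them (42.9%) had no DOX peak there. In 3373 genes at least 1 mock start peak was kept, and in 640 the start held peaks of both lists that did not overlap (exchanged). Of the 14833 genes with no mock start peak, 1287 (8.68%) gained one, 54 of them through a DOX peak that overlapped a mock peak beyond the window. In gene bodies 2691 of 10528 genes lost all peaks (25.6%), 5230 kept at least 1 and 2607 exchanged them, and 1621 of 9334 gained (17.4%). At ends 2171 of 4901 genes lost (44.3%), 2215 kept and 515 exchanged, and 1117 of 16965 gained (6.58%). A peak in the windows of neighbouring genes counts for each of them.

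Fates were also read at several positions of a gene, as shares of all genes with the given start state. These include genes with no mock peak at the other position. Neither list had a body peak in 10.1% of genes with a kept start and 24.8% of genes with a lost start. For end peaks these shares were 42.3% and 63.3%, so the values below mix having a peak with its fate. Among genes with a kept start 53.8% also kept body peaks and 10.3% lost all of them, and among genes with a lost start 24.8% kept body peaks and 19.8% lost all of them. Kept starts were followed by a kept end in 33.8% of genes and lost starts in 10.5%. A single peak can touch several windows of a gene and counts in each, as the only mock peaks of Rpl36 and Phlda3 do at start and end, so part of this agreement is built in.

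The promoter sequence of these genes, which the rule did not use, was read from RefSeq (250 bases before to 50 after the gene start, GRCm38.p6) for the 16499 genes whose symbols matched. Genes with a mock start peak had promoters rich in G and C in every state. The median G+C content was 64.3% where the start peak was kept, 61.7% where it was lost, 58.0% where one was gained and 53% where neither list had one, against 57.0% over all matched genes. The ratio of observed to expected CpG, which is high in CpG islands, had medians of 0.820, 0.738, 0.681 and 0.410 in the same order. A G-quadruplex motif, 4 runs of at least 3 G with 1 to 7 bases between them on either strand, stood in 35.2% of kept, 30.6% of lost, 23.0% of gained and 15.8% of the other promoters, and in 21.8% of all of them. Kept and lost starts both stood above gained starts in this motif.

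The highest-scoring lost start peaks were all narrower than any DOX peak. They lay at mt-Nd3 and mt-Nd4l in the mitochondrial genome (139 bp, score 213), in an intron of Zfp750 (184 bp, score 115), in an untranslated exon of Dnase2b (202 bp, score 113), in an intron of Setdb2 upstream of Cab39l (180 bp, score 110) and in an untranslated exon of Lonrf2 (212 bp, score 104). Zfp750 encodes a transcription factor of epidermal differentiation and Setdb2 a histone methyltransferase. All 11 lost entries that the naming rule gave at starts, bodies and ends were under 213 bp wide, so none was left when only peaks of at least the narrowest DOX width were used. With that limit, a choice made after the values were seen, the highest were Mup9 (668 bp, score 101), a major urinary protein gene, Gjb6 (261 bp, score 99), which encodes a gap junction connexin, and Rflnb (336 bp, score 83). Each of the 3 also lay under peaks of both Rtel1-proficient lists, with scores of 77 and 54 at Mup9, 83 and 44 at Gjb6, and 30 and 31 at Rflnb in GFP mock and GFP DOX.

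The highest-scoring gained start peaks mostly lay in repeats upstream of the gene. The entries were Ugt3a2, a glycosyltransferase gene (1850 bp, score 57, 96.1% masked), Hsbp1, the heat shock factor binding protein gene (269 bp, score 46, 66.2% masked), Vmn1r77, a vomeronasal receptor gene (283 bp, score 44, 89.8% masked), and Cyp2c54, a cytochrome P450 gene (3966 bp, score 42, 98.1% masked). Flvcr2, which encodes a membrane transporter, was the exception, with a peak of 792 bp over coding and untranslated exon sequence at its start that held no masked base (score 44).

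The kept start entries included both long mitochondrial peaks. A mock peak of 6476 bp (score 1476) was matched by a DOX peak of 6515 bp (score 2235), and one of 5333 bp (score 943) by one of 5337 bp (score 1357), so that nearly the same stretches of the mitochondrial genome were called in both libraries. The nuclear entries were Mpnd with its neighbour Stap2 (230 bp in mock, 390 bp in DOX, scores 794 and 355), Phf21a (226 and 383 bp, scores 436 and 310) and Sspn (800 and 497 bp, scores 525 and 244). Among body peaks the top kept pairs were in introns of Il1rapl1 (scores 1287 and 1075), D5Ertd579e (745 and 781) and Lrp1b (697 and 603). At ends they were Lars2, the mitochondrial leucyl-tRNA synthetase gene (scores 1355 and 1175), and Wls, the Wnt ligand carrier gene (972 and 1131), beside a mitochondrial entry.

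The highest-scoring body peaks that were lost lay in introns of Slc23a4 (192 bp, score 132), C1qtnf7 (147 bp, score 128) and Arhgef33 (153 bp, score 98). The body peaks gained lay in introns of Cdrt4 (213 bp, score 77), Gm11099 (213 bp, score 62) and Vmn2r5 (359 bp, score 54). At ends, besides a mitochondrial entry at mt-Co3 and mt-Nd3, the lost entries were Emx1 (170 bp, score 189) and Col5a3 (180 bp, score 151), and the gained ones were Slc30a4 (1160 bp, score 80), Tmcc1 (415 bp, score 68) and Arl2 (253 bp, score 54). The lost entries were again narrower than any DOX peak.

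Over whole genes, 13244 protein-coding genes had a mock peak. Of these 3019 (22.8%) lost all of them with no DOX peak, 2970 exchanged them and 7255 kept at least 1, so keeping none was common. The genes with most mock peaks and none kept all had DOX peaks elsewhere in the gene. Sox5, which encodes a transcription factor of cartilage and neurons and spans 954 kb, had 21 mock peaks, none of which overlapped any of its 5 DOX peaks. Slc39a11, a zinc transporter gene, went from 19 mock peaks to 11 DOX peaks and Tbc1d22a from 19 to 3, again with no overlap. The genes of at least 10 kb with most gained peaks per kb were Zfp119b (5 gained peaks from 0 in mock), 9530002B09Rik (6 gained and 2 kept) and Vps29, a retromer subunit gene (4 gained, 2 lost).

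At the loci the study worked with, Rtel1 itself had 2 mock peaks, of 132 and 437 bp, and 1 DOX peak of 441 bp, all in its body and none overlapping. Peak calls cannot show the deletion. Rnaseh1 had no peak in either list, and the human enzyme is not part of the mouse reference. Actb, a housekeeping gene, kept both of its peaks, with 2451 and 3134 bp in mock and 3967 and 2593 bp in DOX and a score of 38 for the start peak in both. Bcl6, which encodes a transcriptional repressor, had no mock peak and gained a start peak of 930 bp (score 14) in an untranslated exon.

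Lists of genes were read against all genes. Of those with a mock start peak 42.9% lost it and 48.0% kept it, and of those without one 8.68% gained one. Cytosolic ribosomal protein genes kept the largest share among the lists with at least 10 mock start peaks. Of 85 genes 63 had a mock start peak, and 55 kept it, 4 exchanged it and 4 lost it, and 10 of the other 22 gained one (45.5% against 8.68% over all genes). With the top decile of both lists by score, 15 of these genes kept and 8 lost a start peak, and with every peak set to 400 bp 30 kept one and 5 lost it. Rpl17 had a start peak of 772 bp in mock and 973 bp in DOX (scores 128 and 58), and Rpl36 one of 4095 bp in mock and 4160 bp in DOX (scores 103 and 60). The highest-scoring lost start peak of the list was at Rpl31 (400 bp, score 26), and the highest gained one at Rps7 (275 bp, score 33).

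Immediate early genes, which are induced within minutes of a growth signal, kept start peaks in 19 of 26, where all genes kept 48.0%, with 5 lost and 2 exchanged. Mcl1, a survival factor gene of the Bcl-2 family, had a start peak of 4148 bp in mock and 3223 bp in DOX (scores 56 and 59), and Klf10 one of 2420 and 2102 bp (scores 45 and 55). Klf2 and Klf4, Krüppel-like factor genes, lost start peaks of 252 and 261 bp (scores 39 and 25), and Dusp6, a MAP kinase phosphatase gene, was the only member to gain one (734 bp, score 13).

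Genes of R-loop factors kept 10 of 13 start peaks, exchanged 1 and lost 2. Srsf1, a splicing factor gene, had a start peak of 3488 bp in mock and 3588 bp in DOX (scores 79 and 53), and Dhx9, an RNA helicase gene, one of 5332 and 5577 bp (scores 48 and 29). Top1, the topoisomerase I gene, lost a start peak of 975 bp (score 18).

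Replication and checkpoint genes were close to the background in losses, with 6 of 15 start peaks lost, 8 kept and 1 exchanged, but not in gains, and 7 of the other 25 genes gained one (28% against 8.68% over all genes), among them Tipin (3025 bp, score 19) and Orc6 (1199 bp, score 18). The p53 response genes lost 6 of 16, kept 7 and exchanged 3. Zmat3 lost a start peak of 165 bp (score 34), and Phlda3 kept one of 9329 bp in mock and 9530 bp in DOX (scores 34 and 36). Bax, the pro-apoptotic Bcl-2 family gene, was the only one to gain a start peak (213 bp, score 10).

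Extracellular matrix genes of fibroblasts lost 6 of 18 start peaks, kept 8 and exchanged 4. Over whole genes, 106 of their 144 mock peaks were lost and their number fell to 73, a loss of 73.6% against 64.6% over all protein-coding genes. Col5a1, a collagen gene, went from 32 peaks to 7 and held 30 of those losses, and the other genes, set apart after the values were seen, lost 76 of 112 (67.9%). Vim, the gene of the fibroblast intermediate filament vimentin, kept a start peak of 3872 bp in mock and 4102 bp in DOX (scores 40 and 41). Peaks lay in or at 11 of the 15 fibroblast marker genes in mock and at 5 of 9 marker genes of endothelial, macrophage and epithelial cells. A further 2 of each list had a peak in DOX only. Over all protein-coding genes, 13244 of 21951 had a mock peak and 1674 had a peak in DOX only. With so few markers, these counts set neither list apart from genes at large. A peak does not measure expression, and the labelled cell type could not be checked from it.

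Histone genes had few peaks, with 12 of 67 carrying a mock start peak, of which 4 were lost and 6 kept. The 394 zinc finger protein genes stood at the background (47 of 109 start peaks lost, 50 kept), with Zfp513 keeping a peak of 4718 bp in mock and 5114 bp in DOX (scores 98 and 88). Among 1420 odorant and vomeronasal receptor genes, which fibroblasts do not normally use, 63 had a mock start peak, of which 18 were lost and 40 kept, and 69 gained one, or 5.08% of those without a mock start peak against 8.68% over all genes. Over whole genes their peak number rose from 389 to 694, and 469 of the DOX peaks (67.6%) were gained, against 58.7% over all protein-coding genes.

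**Figure D3:**
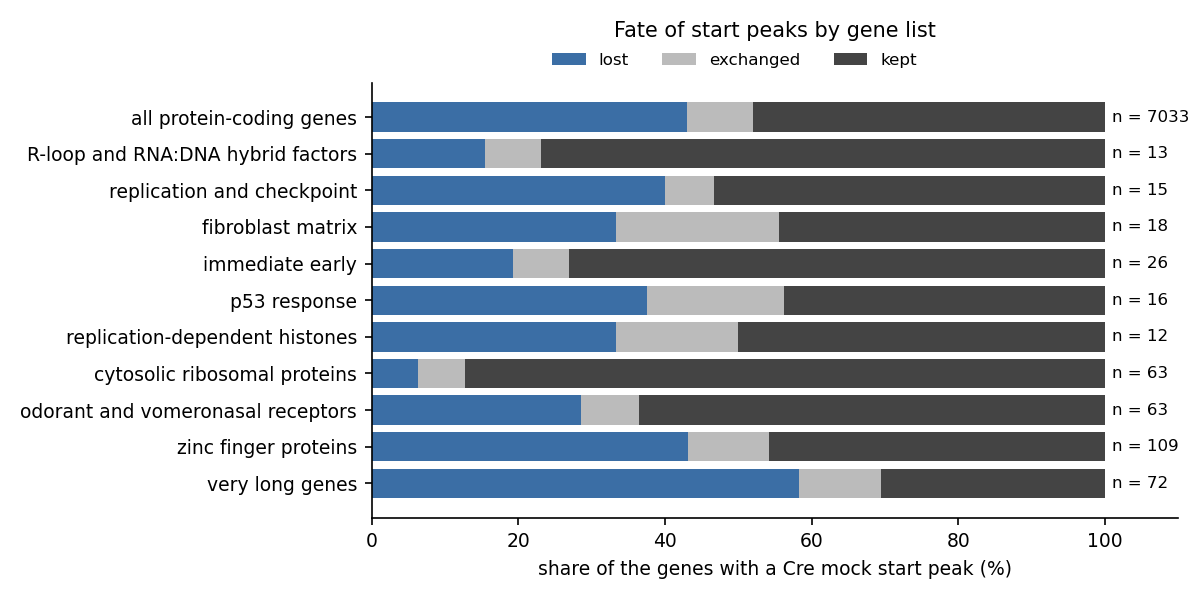
Fate of start peaks (horizontal axis, % of the genes of a list with a Cre mock start peak, number at the right) by gene list: lost in blue, exchanged in light grey and kept in dark grey. Cytosolic ribosomal protein genes lost 4 of 63 and very long genes 42 of 72, with 42.9% over all protein-coding genes.

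Gene length separated the lists further. Per Mb of gene, peaks fell from 199.8 to 159.5 in genes under 5 kb and from 109 to 78.3 in genes of 10 to 20 kb, were level at 25.1 in genes of 200 to 500 kb and rose from 17.5 to 22.9 in genes of 500 kb or more. The 230 genes of that last class lost 42 of 72 start peaks (58.3% against 42.9% over all genes) and 21 of 24 end peaks (87.5% against 44.3%), and yet went from 3487 to 4563 peaks in all. Gm20388, an annotated locus of 4.43 Mb that spans other genes, ran against this with 377 mock and 194 DOX peaks, and without it the class went from 3110 to 4369, with more DOX than mock peaks in 152 of 229 genes. Nkain2 had 61 mock and 112 DOX peaks, and Dmd, the dystrophin gene, 39 and 84.

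Where a peak was kept, the DOX peak was usually the wider one, whereas the ratio lay near 1 at gene starts and ends. The 44326 kept mock peaks had a median width of 473 bp and the widest DOX peak over each a median of 1258 bp, and the median ratio was 2.33 (order-statistic 95% interval 2.30 to 2.37). At starts the widths were 843.5 and 827 bp and the ratio 0.988 (0.961 to 1.01). At ends they were 815 and 746 bp with a ratio of 0.942 (0.896 to 0.990), in bodies 471.5 and 955 bp with 1.95 (1.89 to 1.99), and outside genes 441 and 1528 bp with 2.91 (2.86 to 2.95). In these DOX widths a DOX peak counts for each mock peak under it. Counted once each, the 38247 kept DOX peaks had a median width of 939 bp. By their own position it was 767.5 bp at starts, 722 bp in bodies, 699 bp at ends and 1106 bp outside genes. In the top decile of both lists the ratio was 1.45 over all kept peaks, 1.40 in bodies and 1.63 outside genes. The DOX peak was the wider one in 49.04% of kept start peaks, 46.7% of end peaks and 87.6% of peaks outside genes. With peaks up to 1 kb apart counted as shared, the ratio rose above 1 at starts (1.12, 1.08 to 1.15) and ends (1.10, 1.05 to 1.16). With an overlap of at least 50% of the narrower peak it was 0.953 (0.922 to 0.985) and 0.890 (0.831 to 0.932), and with peaks of at least 213 bp 0.917 (0.884 to 0.943) and 0.848 (0.783 to 0.898). The DOX peak covered the mock peak wholly in 52.97% of all cases, and 16.6% of kept DOX peaks joined 2 or more mock peaks, at most 6.

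Repeats divided the widths too. Kept mock peaks over 50% masked had a ratio of 2.98 (2.94 to 3.02) and those at most 50% masked one of 1.06 (1.04 to 1.08). Within the second group the ratio was 0.966 at starts, 1.09 in bodies, 0.873 at ends and 1.36 outside genes, and within the first 1.74, 2.67, 1.65 and 3.07. By width of the mock peak, which is the ratio's own denominator and so lowers it by construction, the ratio was 6.23 under 213 bp, where every DOX peak must be wider, 1.03 between 2 and 5 kb and 0.693 at 5 kb or more.

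**Figure D4:**
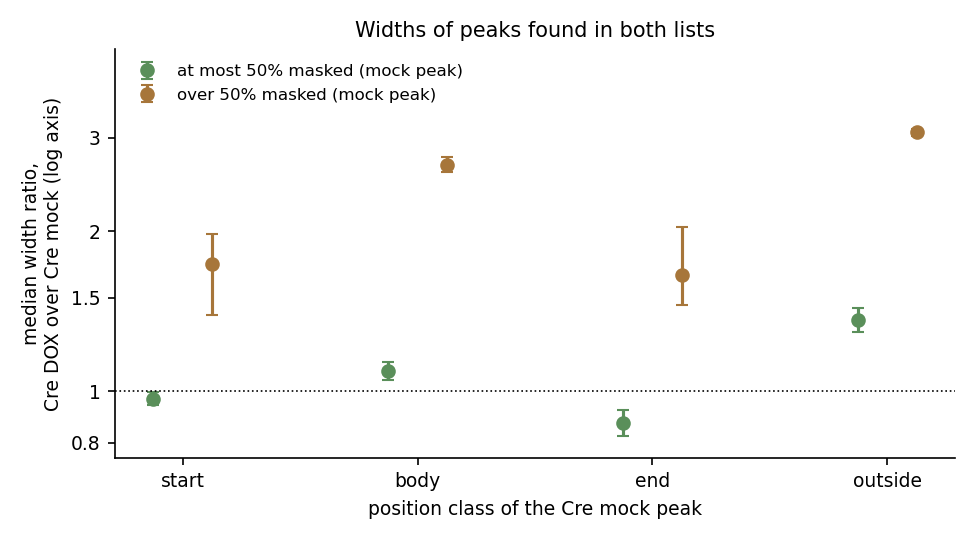
Median width ratio of kept peaks, Cre DOX over Cre mock (vertical axis, logarithmic), by position class of the mock peak, with points for mock peaks at most 50% and over 50% repeat-masked and lines for 95% order-statistic intervals. Outside genes the peaks over 50% masked stand at 3.07 and those at most 50% masked at 1.36. Start and end peaks at most 50% masked lie below 1.

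The start pairs with the largest width ratios, among pairs in the top decile of both lists, were Fkbp2, an immunophilin gene (544 bp in mock, 10612 bp in DOX), Slc35b2, a sulphate donor transporter gene (666 and 12354 bp), and Atp13a3, a polyamine transporter gene (284 and 2287 bp). Their ratios were 19.5, 18.5 and 8.05.

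The X chromosome stood apart from the autosomes. It lost 1561 of 6587 mock peaks (23.7%, 22.7 to 24.7) where the autosomes lost 53.5%, and its peaks rose to 10786, or 1.64 times, against 1.12 times over the autosomes. Its peaks were more often mostly masked than those of the autosomes (87.5% against 51.5% in mock, 93.1% against 73.1% in DOX), but masked X peaks were also lost less often than masked autosomal peaks, 16.9% against 33.3%, while unmasked ones were lost at 71.5% and 74.9%. At gene starts the X did not follow, with 85 of 148 genes losing their start peak (57.4%) against 42.7% of autosomal genes. Among autosomes the share lost ran from 39.0% on chromosome 3 to 66.4% on chromosome 9, and DOX peaks per mock peak from 0.844 on chromosome 11 and 0.852 on chromosome 15 to 1.52 on chromosome 12.

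**Figure D5:**
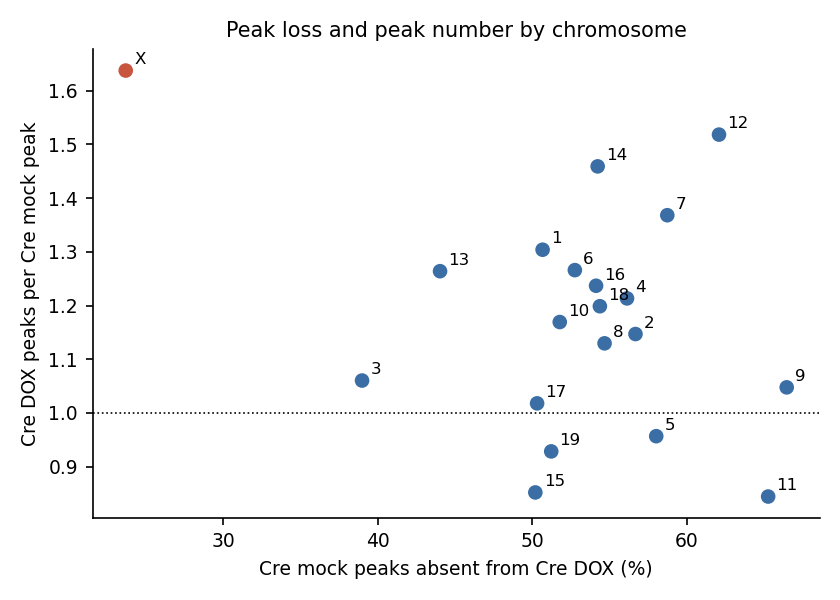
Cre DOX peaks per Cre mock peak (vertical axis) against the share of Cre mock peaks absent from Cre DOX (horizontal axis, %), 1 point per chromosome, with the X in red. The X lies at 23.7% and 1.64, and chromosome 11 at 65.3% and 0.844.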

How the data were processed

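Of the 8 samples labelled in the series, 4 are DRIP libraries with a peak list each, and the 4 input samples were not analysed here. The authors ran the nf-core/chipseq pipeline on single-end reads, with adaptor trimming and BWA alignment, and MACS2 and mm10 are named in the submitters' processing notes. Their stated command asks for narrow peaks, whereas the deposited lists are in the broad format. For their own overlaps the authors kept each sample's top decile of peaks by score. The main counts here use all peaks, so they rest on a different set, and the top decile is given as an alternative. Peaks were called by library. The deposited score was 10 times the -log10 of the q-value, rounded down, for nearly all peaks (91092 of 91097 in Cre mock and 105079 of 105081 in Cre DOX), and the lists also give a fold enrichment, a ratio to the local background that the authors' peak caller estimated, beside the -log10 p-value and -log10 q-value. Peaks are missing where repeats or shallow reads prevent a call, and depth is not given in the sources used here.

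From the positions, overlaps of at least 1 bp, position classes (GENCODE M21), widths, G+C content and repeat masking were computed with Python 3.11.15, numpy 2.4.6, pandas 2.3.3, scipy 1.17.1, matplotlib 3.10.9 and samtools 1.23.1. Shares have exact binomial (Clopper-Pearson) 95% intervals and median ratios order-statistic intervals. Neighbouring peaks are not independent, so both cover counting error only. The overlap and width code was tested on simulated data. No test between conditions was run, because each condition had 1 library.

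The genes named were, at starts, the 5 lost and 5 gained entries with the highest scores and the 5 kept pairs with the best lower rank of score, and 3 of each in bodies and at ends. To these were added the 3 widest start ratios in the top decile, the 3 genes with most mock peaks and none kept, the 3 genes of at least 10 kb with most gained peaks per kb, the loci of the study and up to 4 members of each gene list. The members, lists and rules were chosen with earlier results of these data known. Alternatives changed the overlap, the peaks used, the windows and the peak widths. Some items are not reported here.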

Additional observations from a re-analysis of the deposited data

Results flagged for a closer look

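The total number of peaks moved in opposite directions with RNaseH1 induction in the Rtel1-deleted cells and in the Rtel1-proficient cells, which had been infected with an adenovirus encoding GFP alone. DOX peaks per mock peak came to 1.15 in the Cre cells and 0.687 in the GFP cells. Outside protein-coding genes the ratios were 1.47 in the Cre cells and 0.647 in the GFP cells. At protein-coding genes the number fell in both, from 8615 to 6065 (Cre) and from 6940 to 5943 (GFP) at starts, from 30447 to 26626 and from 24437 to 16937 in bodies, and from 4935 to 3329 and from 2851 to 2798 at ends. In bases these peaks moved in opposite directions. Start peaks covered 6.95 Mb in mock and 5.52 Mb in DOX in the Cre cells, and 3.89 and 4.46 Mb in the GFP cells. End peaks covered 3.47 and 2.55 Mb (Cre) and 1.27 and 1.82 Mb (GFP). Body peaks covered 13.7 and 18.6 Mb (Cre) and 8.71 and 7.68 Mb (GFP). Each comparison rests on 1 library a side, and the difference between the cells was not tested.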

How the results depend on the processing

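The loss and gain shares depended on what counts as a peak and as an overlap, and their contrast between classes on repeats, peak width and score. Values follow in the order all, start, body and end. The mock peaks lost (51.3, 57.8, 67.1 and 67.7%) came to 56.8, 64.0, 71.7 and 72.7% when at least 50% of the narrower peak had to overlap, and the DOX peaks gained (63.6, 39.3, 65.8 and 48.2%) to 67.9, 48.0, 70.9 and 56.6%, with a width ratio of 2.49 instead of 2.33. With peaks up to 1 kb apart counted as shared they were 39.8, 43.3, 54.4 and 51.1% lost and 51.0, 23.9, 51.3 and 31.5% gained, with a ratio of 2.49. Windows of 2 kb gave width ratios of 1.02 at starts and 1.03 at ends. The top decile of both lists by score gave 76.2, 77.8, 83.5 and 84.7% lost, 79.8, 51.6, 78.8 and 69.8% gained and a ratio of 1.45, with 913 genes that lost, 304 that kept and 268 that gained start peaks. An equal number of peaks, taken by score, gave 53.7, 61.0, 69.4 and 70.8% lost, 60.5, 36.0, 62.6 and 44.8% gained and a ratio of 2.43. Every peak set to 400 bp around its midpoint gave 70.1, 71.7, 77.9 and 79.0% lost and 74.1, 58.8, 75 and 67.5% gained. The share lost outside genes, 38.3%, became 63.7% with 400 bp peaks and 71.4% in the top decile, so that starts minus outside fell from 19.5 to 8.03 and 6.42 percentage points and bodies minus outside from 28.8 to 14.2 and 12.1.

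With peaks at most 50% repeat-masked in both lists, 76.3% of all mock peaks, 82.5% of body peaks and 69.1% of end peaks were lost, 61.1, 37.8, 66.4 and 45.5% of DOX peaks were gained and the ratio was 1.06. There the difference for starts changed sign, to -24.8 percentage points, and that for bodies vanished within counting error, at -0.27. Windows of 2 kb gave 60.5, 66.4 and 69.5% lost and 44.6, 66.7 and 52.7% gained at starts, bodies and ends. The outermost start and end of each gene gave 55.9% lost at starts and 63.5% at ends, and 37.3 and 64.2% gained at starts and in bodies. Peaks as wide as the narrowest DOX peak or wider, an alternative chosen after seeing the data, gave 42.6, 51.2, 59.4 and 61.2% lost, 69.3, 44.1, 71.1 and 53.02% gained and a ratio of 1.92. The cause of these shifts was not tested. No paired analysis was possible because each condition had 1 library, and for the same reason no library could be left out. Scores, widths and the number of peaks depend on depth, which the lists do not give.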
